A study of Mus musculus with 65 samples.

Results

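Oxidative phosphorylation is the last stage of respiration in mitochondria. Complex I (genes named Nduf) and complex II (Sdh) pass electrons into the respiratory chain, complex III (Uqcr) hands them to cytochrome c, and complex IV (Cox) passes them to oxygen. Complex V, the ATP synthase (Atp5), uses the proton gradient built on the way to make ATP. Most subunits are encoded in the nucleus, and in red cell precursors the same mitochondria also take part in making heme. The nuclear genes of this system were taken by name: symbols starting with Nduf, Uqcr, Atp5 or Sdh, or with Cox4, Cox5, Cox6, Cox7 or Cox8. This rule was set with earlier results of these data known. The rule took 92 of the 15020 gene symbols in the tables, and 88 of the 92 had a mean normalised read count of at least 10 in all 4 gene tables and were tested. The other 4 stayed below that mean in every table. They were Atp5k, at means of 3.09 to 8.28, Cox6b2, listed at 0, Cox7a1, at 2.32 to 5.54, and Ndufa4l2, at 1.71 to 4.64. Cox6b2 and Cox7a1 are isoforms known from testis and from heart and skeletal muscle.

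Transcription was measured by PRO-seq, a run-on assay that sequences RNA being made by engaged polymerases, in MEL cells, a mouse erythroleukemia line, with 65 libraries in all. In all of them Mtg16, a transcriptional corepressor encoded by Cbfa2t3, carried FKBP and 2XHA tags. Agents were dTAGV1 at 250 nM, a compound that sends FKBP-tagged protein to degradation (the degrader), A485 at 10 µM, which blocks p300 and CBP acetyltransferase activity, and LBH589 (panobinostat) at 5 nM, which inhibits histone deacetylases. The time course held degrader for 15 min, 30 min, 1 h and 2 h, washout for 30 min, 1 h and 2 h after 2 h of degrader, and DMSO. The A485 series held 15 min, 30 min and 1 h of degrader, of A485 and of both, and DMSO. The LBH589 series held 30 min and 1 h of LBH589 and DMSO. The LBH589 washout series had no control group: its cells were given degrader for 2 h, then washout for 30 min or 1 h, and were exposed to LBH589 as well, at a time that is not given. Groups had 3 libraries, except degrader 2 h of the time course, A485 30 min and both agents 30 min with 2, and, among the gene columns used here, 2 for washout 30 min, 1 for washout 1 h and 2 for washout 2 h. Nothing in the labels says that replicates came from separate cultures, so p-values measure the spread between these libraries, which may be technical. No group was washed without degrader and no protein was measured, so washing, fresh medium and the return of Mtg16 cannot be told apart.

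The cell line label was set against its markers first. Of 10 erythroid markers, 8 had a mean of at least 10 in all 4 tables, among them the transcription factor genes Gata1, Klf1, Tal1 and Gfi1b. The same held for 0 of 5 lymphoid, 1 of 4 macrophage (Cd68), 0 of 4 fibroblast, 1 of 4 epithelial (Krt8) and 2 of 3 neuronal markers (Rbfox3 and Syt1), and the others were below that mean in a table or not analysed here. Recovered reads per library numbered 16195241 to 62384678 in the time course, 7453718 to 61981001 for A485, 28147263 to 44810180 for LBH589 without washout and 13455453 to 29082615 for LBH589 with washout. These are sums over all 25857 transcripts, so a read shared by transcripts of 1 gene counts more than once.

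In the time course 2 libraries went against their labels. Over the 88 genes, the library labelled degrader 30 min replicate 3 differed from the other libraries of its group by a mean absolute 0.436 on the log2 scale, and from the 30 min washout libraries by 0.0966. Over all tested genes these distances were 0.398 and 0.127. The library labelled degrader 15 min replicate 2 lay 0.307 from its own group and 0.183 from degrader 2 h over the 88 genes, and 0.283 and 0.139 over all tested genes. Both were kept as labelled, and the time-course counts of called members, in all, by complex and by length, and those of the related lists, are also given without them. A further 5 libraries, named for 1 h and 2 h of degrader in their library names, carry A485 in their title and treatment label and are used as the library name says. All time-course libraries of degrader 2 h are among them, so every washout comparison against degrader rests on the library name.

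The promoters of 5 members are shown because transcription of these genes starts there: the 3 with the largest called rise after 2 h of washout and the 2 longest that did not pass. Each runs 5′ to 3′ from 250 bases before to 50 bases after the start (RefSeq, GRCm38.p6), in lower case with motif matches in capitals.
Uqcr11, chr10:80406772-80407071, minus strand: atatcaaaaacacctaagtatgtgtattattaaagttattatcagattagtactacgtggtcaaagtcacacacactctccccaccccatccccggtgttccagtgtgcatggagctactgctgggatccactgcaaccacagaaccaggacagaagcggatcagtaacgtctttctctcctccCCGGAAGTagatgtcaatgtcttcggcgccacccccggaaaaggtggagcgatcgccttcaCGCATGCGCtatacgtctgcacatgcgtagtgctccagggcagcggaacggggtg
Atp5g1, chr11:96075582-96075881, minus strand: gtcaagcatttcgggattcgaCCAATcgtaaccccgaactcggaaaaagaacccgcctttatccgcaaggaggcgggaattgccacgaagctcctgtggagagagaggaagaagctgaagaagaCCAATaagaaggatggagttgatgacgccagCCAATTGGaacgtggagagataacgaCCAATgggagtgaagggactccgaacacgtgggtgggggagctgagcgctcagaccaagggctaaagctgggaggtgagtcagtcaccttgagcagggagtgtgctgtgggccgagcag
Ndufs5, chr4:123718137-123718436, minus strand: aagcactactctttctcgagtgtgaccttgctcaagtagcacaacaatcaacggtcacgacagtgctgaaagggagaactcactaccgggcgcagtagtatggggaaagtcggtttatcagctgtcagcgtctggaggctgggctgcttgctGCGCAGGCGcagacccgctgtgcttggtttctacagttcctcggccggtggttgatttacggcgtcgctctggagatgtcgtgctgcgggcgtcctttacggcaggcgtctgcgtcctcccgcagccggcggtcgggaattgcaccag
Ndufaf2, chr13:108158576-108158875, minus strand: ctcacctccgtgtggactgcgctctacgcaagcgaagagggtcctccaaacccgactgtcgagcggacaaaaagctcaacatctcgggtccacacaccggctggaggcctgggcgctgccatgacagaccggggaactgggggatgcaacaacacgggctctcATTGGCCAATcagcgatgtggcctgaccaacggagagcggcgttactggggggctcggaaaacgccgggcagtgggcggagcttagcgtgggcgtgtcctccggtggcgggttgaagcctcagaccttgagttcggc
Ndufs4, chr13:114388045-114388344, minus strand: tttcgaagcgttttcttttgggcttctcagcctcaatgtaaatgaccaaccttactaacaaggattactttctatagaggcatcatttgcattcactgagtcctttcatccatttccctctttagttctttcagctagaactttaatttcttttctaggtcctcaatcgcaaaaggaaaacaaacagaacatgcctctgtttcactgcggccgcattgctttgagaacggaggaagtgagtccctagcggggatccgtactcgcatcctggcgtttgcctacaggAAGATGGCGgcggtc

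Motifs searched on both strands, with overlapping matches counted, were the cores GCGCANGCG of NRF1, AAGATGGCG of YY1 and CCGGAAGT of ETS factors, the CCAAT box CCAAT and the TATA box TATAAA. The NRF1 core is nearly its own reverse complement, and CCAATTGG in Atp5g1 holds the CCAAT box on both strands. Of the 88 genes, 75 had a promoter entry that could be shown or searched here. The NRF1 core was in 22 of these 75 promoters (29.3%) and in 6.47% of all 27025 promoters, and the YY1 core in 7 (9.33%) against 1.49%. The ETS core was in 5 (6.67%) against 4%, the CCAAT box in 31 (41.3%) against 37.9% and the TATA box in 7 (9.33%) against 14.2%. The 27025 promoters were not limited to tested genes, while members had to reach a mean of 10. How this affects these shares was not tested. Among the 31 promoters of genes called higher after 2 h of washout the NRF1 core was in 10 (32.3%), and among the other 44 members in 12 (27.3%). Uqcr11 held 1 NRF1 core and 1 ETS core, Atp5g1 held 5 CCAAT matches, Ndufs5 held 1 NRF1 core, Ndufaf2 held 2 CCAAT matches and Ndufs4 held 1 YY1 core.

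By role the 88 genes were 30 accessory subunits, 7 core subunits and 8 assembly factors of complex I, 4 subunits and 3 assembly factors of complex II, and 8 subunits of complex III. Complex IV gave 10 subunits, Ndufa4 and the supercomplex factor Cox7a2l, and complex V gave 5 subunits of the F1 head and 11 of the Fo membrane part and stalk. They were short: the median length was 7.58 kb, against 21.39 kb for all tested genes of the time course, by the GRCm38.p6 gene table. The shortest was Ndufaf8 (1.49 kb) and the longest Ndufaf2 (106.06 kb). Complex III genes had a median of 4.89 kb and complex II genes one of 21.48 kb. Per kb of gene, the normalised read count in DMSO of the A485 series ran from 7.40 to 222, with a median of 43.6. Atp5g2, which encodes the c subunit of the ATP synthase ring, was highest at 222 ± 9.01 per kb (SD, n = 3). Next came Atp5b, the catalytic beta subunit, at 164 ± 5.53 per kb, and Ndufb8, an accessory subunit, at 164 ± 8.22 per kb, levels that did not differ beyond their spread. Sdhaf3, an assembly factor of complex II, was lowest at 7.40 ± 0.377 per kb.

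Summed over the 88 genes, the share of all gene signal in the time course was 0.329% to 0.346% in DMSO, 0.33% to 0.335% after 2 h of degrader, 0.322% to 0.345% after 30 min of washout, 0.385% in the library of 1 h washout and 0.394% to 0.398% after 2 h of washout. In the A485 series it was 0.398% to 0.402% after 1 h of A485 and 0.328% to 0.337% in DMSO. The summed normalised counts behind this pair were 51234 to 52035 after 1 h of A485 and 48782 to 50614 in DMSO, a smaller difference than that of the shares. In the LBH589 series the share was 0.374% to 0.377% after 1 h of LBH589 and 0.374% to 0.377% in DMSO, while the summed normalised counts were 66678 to 67588 after 1 h of LBH589 and 72248 to 72969 in DMSO, without overlap.

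**Figure D1:**
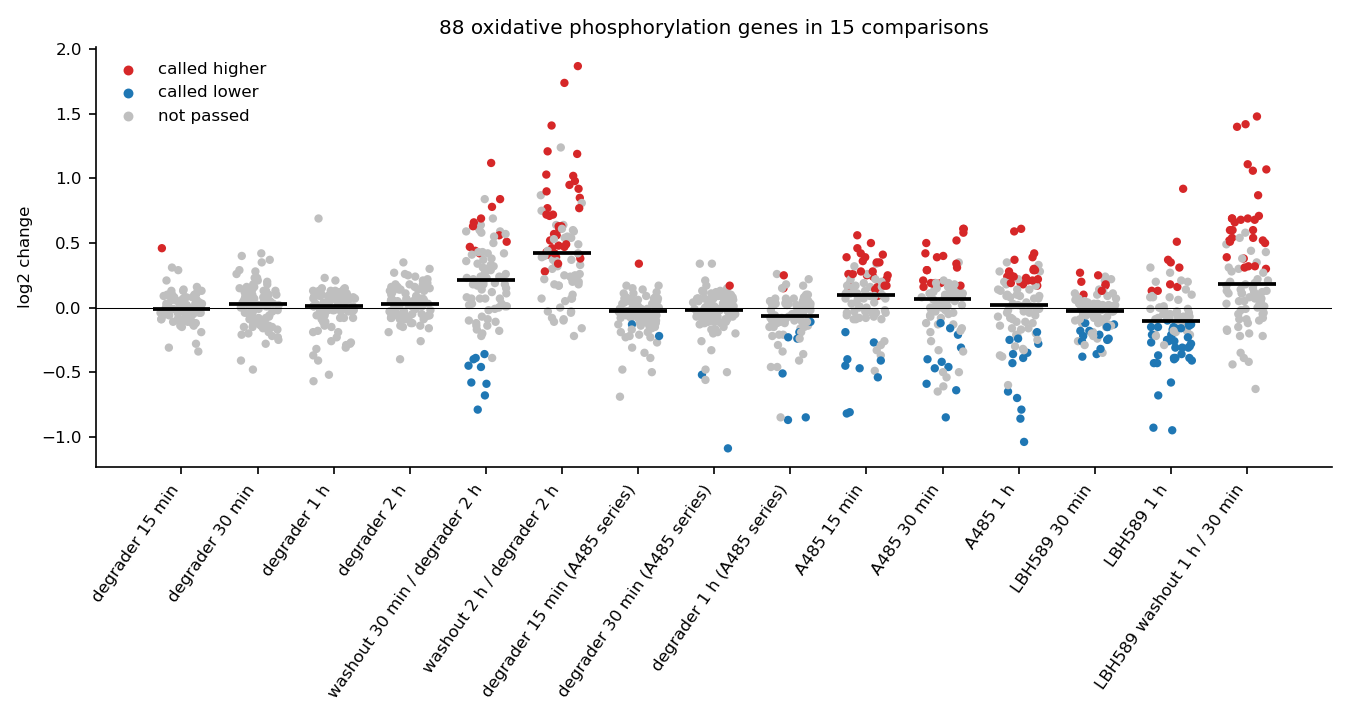
The log2 change of each of the 88 genes (points) in 15 comparisons, with the median as a black bar. Degrader comparisons of the time course lie around 0, the 2 h washout against degrader has a median of 0.42 with no gene called lower, and A485 and LBH589 move members in both directions.

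Degrader treatment was followed by few changes in these genes. In the time course, against DMSO, 1 of the 88 was called higher and 0 lower after 15 min of degrader (limma, adjusted p under 0.05), where 5.89% of all tested genes were higher and 1.04% lower. That gene was Ndufa6, an accessory subunit of complex I. Its normalised read counts were 516, 596 and 582 after 15 min of degrader and 362, 395 and 475 in DMSO. The groups did not overlap, and the log2 change was 0.46 ± 0.11 (SE, limma adjusted p = 0.0162). At 30 min, 1 h and 2 h limma called 0 of the 88, where 5, 2 and 3 had an unadjusted p under 0.05. The background was 8.69% higher and 5.17% lower at 30 min, 8.13% and 3.15% at 1 h, and 6.77% and 2.63% at 2 h. Median log2 changes of the 88 genes were -0.01, 0.02, 0.01 and 0.03 from the first time to the last, and without the 2 libraries that went against their labels they were -0.09, -0.06, 0.01 and 0.03. At 15 min 40 of the 88 changes were above 0 with these libraries and 13 without them, and at 30 min 53 and 22, so that the sign of the 30 min median rests on the library labelled replicate 3. The 10 complex IV subunits had a median of 0.11 at 30 min with that library (-0.14 to 0.16) and -0.08 without it (-0.43 to -0.01), and none of them passed either way. In bulk libraries, fewer cells transcribing a gene and less transcription per cell cannot be told apart.

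Without the 2 libraries that went against their labels, more members were called. At 15 min 2 were higher (Ndufa6 at 0.42 and Ndufs4 at 0.12) and 9 lower, against 14.1% and 13.7% of all genes. The falls were led by Ndufv3, an accessory subunit of the NADH-binding module, at -0.46 ± 0.11 and Ndufaf4, an assembly factor, at -0.43 ± 0.07. At 30 min 0 were higher and 1 lower, Ndufa13 at -0.20, against 12.2% and 8.87%. At 1 h 2 were higher and 2 lower, against 15.1% and 15.1%, and Cox5b, a complex IV subunit, fell furthest at -0.57. At 2 h 9 were higher and 0 lower, against 17% and 14.1%. These included Ndufa11 (0.30), Atp5g2 (0.27), Ndufaf6 (0.26) and Sdhb (0.24).

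The degrader was also given in the A485 series. At 15 min 1 member was called higher and 2 lower, against 10.9% and 5.8% of all genes. The gene that rose was again Ndufa6, at 759, 694 and 645 after 15 min of degrader against 539, 563 and 558 in DMSO (log2 change 0.34 ± 0.09, limma adjusted p = 0.00992). All 3 libraries lay above those of DMSO. At 30 min and 1 h of degrader Ndufa6 averaged 603 ± 17.6 and 582 ± 44.5 (SD, n = 3 each), at log2 changes of 0.12 ± 0.09 and 0.07 ± 0.09 that did not pass. Those that fell at 15 min were Atp5j (-0.22), a stalk subunit of the ATP synthase, and Ndufa10 (-0.13).

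At 30 min 1 rose and 2 fell, against 11.3% and 9.23%, and at 1 h 2 rose and 7 fell, against 14.7% and 10.9%. Sdhb, the iron-sulfur subunit of complex II, averaged 1153 ± 55 after 1 h of degrader and 971 ± 63.5 in DMSO (SD, n = 3 each). Its log2 change was 0.17 ± 0.06 at 30 min and 0.25 ± 0.06 at 1 h (limma adjusted p = 0.0284 and 0.00096). Atp5g3, another gene for the ring subunit c, had 177, 127 and 150 after 1 h of degrader, against 231, 215 and 196 in DMSO. It fell, with log2 changes of -0.52 ± 0.13 at 30 min and -0.51 ± 0.13 at 1 h (limma adjusted p = 0.00334 and 0.00304). Ndufaf8, an assembly factor, had 22.8, 18.3 and 4.54 after 30 min of degrader against 29.8, 24.0 and 30.9 in DMSO (-1.09 ± 0.37), and the third library was far below the other two. Others lower at 1 h were Ndufa2 (-0.87 ± 0.26), Cox5b (-0.85 ± 0.32), Ndufb1 (-0.24), Ndufb8 (-0.23), Cox6b1 (-0.19) and Ndufs1 (-0.11), and Ndufa12 was higher (0.15).

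Washout was followed by a rise in many of these genes. After 2 h of washout, against 2 h of degrader, 35 of the 88 were called higher, 0 lower and 53 did not pass, where 8.98% of all tested genes were higher and 8.3% lower. The median log2 change was 0.42, against -0.00 over all tested genes, and 78 of the 88 had a change above 0. Without the libraries that went against their labels 64 were higher and 1 lower, against 22.2% and 20.8%. Neither of those libraries is in this comparison, so only the spread estimated by the fit changed. Leaving out either degrader library or either washout library left 9 to 14 calls.

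Uqcr11, a small subunit of complex III, had the largest change. Its normalised read counts were 871 and 1014 after 2 h of washout and 271 and 242 after 2 h of degrader. The log2 change was 1.87 ± 0.27 (SE, n = 2 each, limma adjusted p = 0.00045). Over the whole course it averaged 280 ± 25.2 in DMSO, then 309 ± 126 at 15 min, 236 ± 19.2 at 30 min and 304 ± 25.7 at 1 h of degrader (SD, n = 3 each). It averaged 257 ± 20.3 after 2 h of degrader and 265 ± 98.7 after 30 min of washout (SD, n = 2 each), and the library of 1 h washout had 751. The 30 min washout counts, 335 and 195, lay on both sides of those after degrader, and all 3 later libraries lay far above them.

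Atp5g1, the third gene for the ring subunit c of the ATP synthase, had 333 and 355 after 2 h of washout and 93.8 and 111 after 2 h of degrader. Its log2 change was 1.74 ± 0.31 (limma adjusted p = 0.00202). It was already high at 30 min of washout, with 252 and 198, and it had 289 in the library of 1 h. Ndufs5, an accessory subunit of complex I, averaged 178 ± 9.84 after 2 h of washout and 66.8 ± 9.71 after 2 h of degrader (SD, n = 2 each), with no overlap (1.41 ± 0.27, limma adjusted p = 0.00308). It was at 94.3 and 65.1 after 30 min and at 149 after 1 h of washout. Ndufa4, a protein first placed in complex I and later in complex IV, had 682 and 654 after 2 h of washout against 361 and 347 after degrader (0.92 ± 0.20). At 30 min of washout it had 572 and 571, between those 2 levels.

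**Figure D2:**
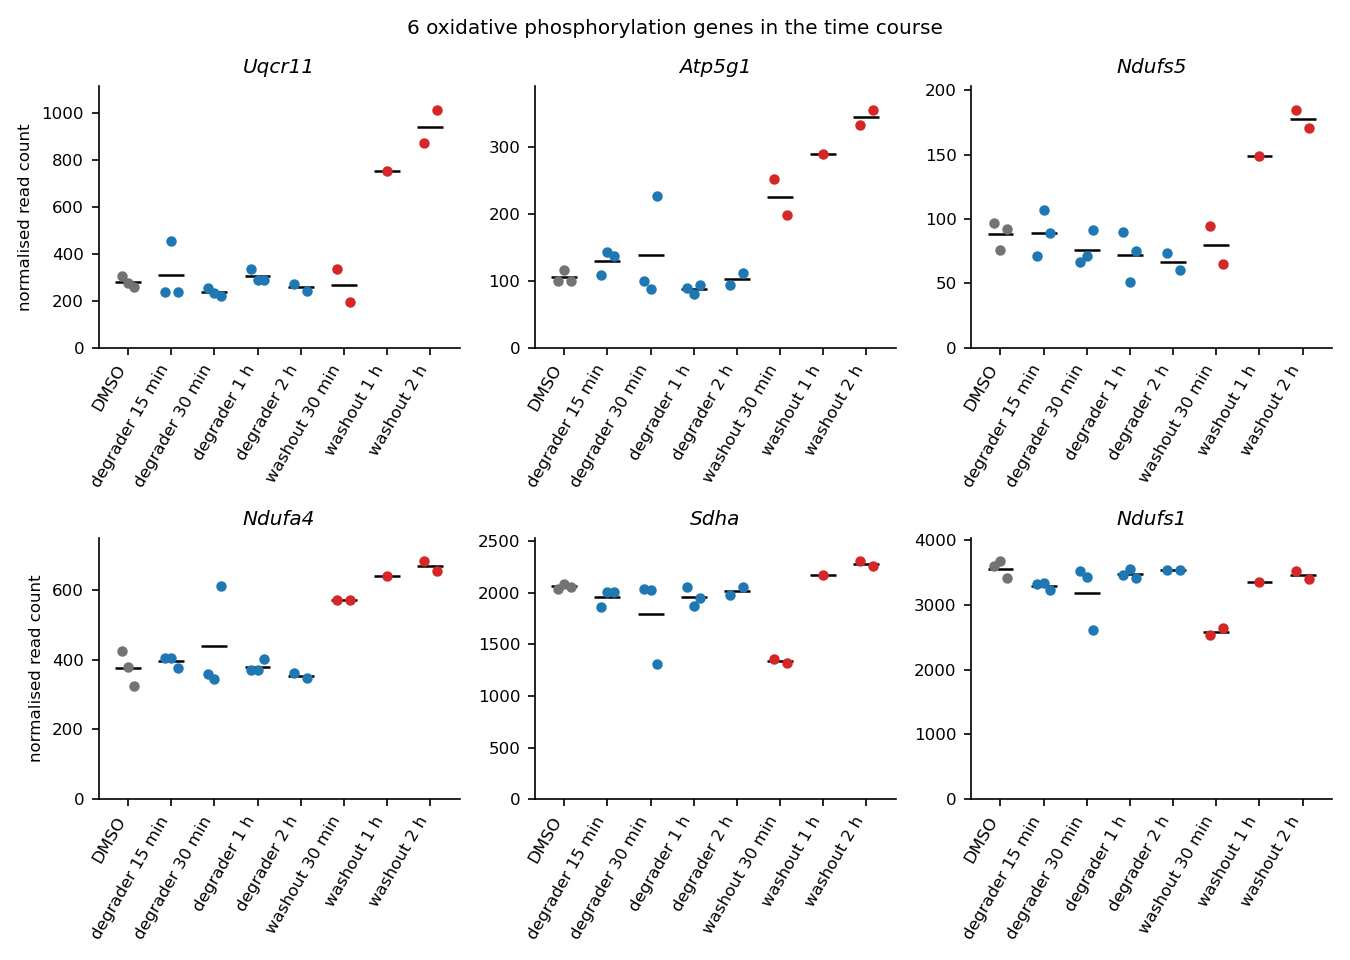
Normalised read counts of 6 genes in each library of the time course (points) with the group mean (bars), in order of treatment. Uqcr11, Atp5g1, Ndufs5 and Ndufa4 have their highest group mean after 2 h of washout, while Sdha and Ndufs1 have their lowest after 30 min of washout.

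The other large rises at 2 h were in Cox6a1, a complex IV subunit (1.21 ± 0.29), Atp5h, subunit d of the ATP synthase stalk (1.19 ± 0.24), and Atp5d, the delta subunit of the F1 part (1.03 ± 0.22). They were followed by the accessory complex I subunits Ndufa1 (1.02 ± 0.27), Ndufa3 (0.98 ± 0.28) and Ndufb9 (0.95 ± 0.18). By complex, 11 of 16 members of complex V rose, 4 of 8 of complex III, 4 of 12 of complex IV, 14 of 45 of complex I and 2 of 7 of complex II. Within complex V these were 8 of 11 Fo and stalk subunits and 3 of 5 F1 subunits. Within complex I they were 12 of 30 accessory subunits, 1 of 7 core subunits and 1 of 8 assembly factors. Without the libraries that went against their labels, 13 of 16 rose in complex V, 6 of 8 in complex III, 10 of 12 in complex IV, 31 of 45 in complex I and 4 of 7 in complex II. These were 4 of 7 core, 23 of 30 accessory and 4 of 8 assembly factor genes in complex I, and 9 of 11 Fo and stalk and 4 of 5 F1 genes in complex V.

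Catalytic and core subunits were called in some complexes and not in others. In complex I, the core subunit Ndufv2 rose (0.42 ± 0.08). Ndufs1, the largest iron-sulfur subunit, was at -0.03 ± 0.10, Ndufs3 at 0.22, Ndufs7 at 0.34, Ndufs8 at 0.40 and Ndufv1, which binds the flavin, at 0.36, and none of these passed. In complex II the membrane anchors Sdhd (0.63 ± 0.17) and Sdhc (0.34 ± 0.11) rose, whereas the flavoprotein Sdha was at 0.18 ± 0.15 and Sdhb at 0.07 ± 0.12. In complex III the Rieske protein Uqcrfs1 rose (0.61 ± 0.16), and the core proteins Uqcrc1 (0.17) and Uqcrc2 (-0.10) did not pass. In complex V the alpha and beta subunits Atp5a1 and Atp5b rose, at 0.43 ± 0.12 and 0.47 ± 0.14, and the gamma subunit Atp5c1 was at 0.05 ± 0.08. In complex IV, whose catalytic core is encoded in mitochondrial DNA, the nuclear subunits Cox4i1 (0.25), Cox5a (0.33) and Cox6c (0.32) did not pass.

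Against DMSO, 61 members were higher after 2 h of washout and 0 lower, where 21% of all genes were higher and 17.5% lower, with a median of 0.50. Without the libraries that went against their labels there were 71 and 2, against 32.3% and 26.9%. This comparison uses the same washout libraries as the one with degrader. The log2 change against DMSO was 1.75 ± 0.25 for Uqcr11 and 1.71 ± 0.29 for Atp5g1. Of the Fo and stalk subunits 11 of 11 were higher, of complex IV subunits 8 of 10 and of complex III subunits 6 of 8. With those libraries left out these were 11 of 11, 9 of 10 and 7 of 8. Uqcr10 (1.42 ± 0.38), Ndufaf3 (1.00 ± 0.28) and Cox8a (0.99 ± 0.29) were among them.

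At 30 min of washout, against 2 h of degrader, 11 members were higher and 9 lower, where 10.5% of all genes were higher and 13.8% lower. Without the libraries that went against their labels there were 42 and 11, against 24.7% and 26.3%. With any 1 of the 4 libraries compared left out, 0 members were called by limma. The genes that rose were led by Atp5g1 (1.12 ± 0.31), Ndufa1 (0.84 ± 0.27), Uqcrb (0.78 ± 0.21), Ndufa4 (0.69 ± 0.20) and Ndufb3 (0.66 ± 0.18), and none was 10 kb or longer. Of these 11, 8 were also higher at 2 h (72.7% of the 11 and 22.9% of the 35), in comparisons that share the degrader libraries. Without the libraries that went against their labels, 4 of 14 members at 10 to 20 kb were higher too, against 22.3% of other genes. With all libraries in the fit, 9.88% of other genes at 10 to 20 kb and 12.5% at 20 to 50 kb were higher.

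The genes that fell at 30 min of washout were led by Ndufv3 (-0.79 ± 0.21), Ndufa8 (-0.68 ± 0.18), Sdha (-0.59 ± 0.15) and Sdhb (-0.58 ± 0.12). Ndufab1 (-0.46), Ndufs1 (-0.45), Sdhaf2 (-0.39) and Ndufaf5 (-0.36) were also lower, and none of the 9 that fell was under 10 kb. Of other genes 3.74% under 5 kb and 12.2% at 5 to 10 kb were lower. Sdha had 1361 and 1323 after 30 min of washout and 1982 and 2061 after 2 h of degrader. It had 2174 in the library of 1 h and 2306 and 2262 after 2 h of washout, above the 30 min libraries. Ndufs1 had 2534 and 2635 after 30 min of washout, against 3528 and 3531 after degrader, and 3516 and 3402 after 2 h of washout. Ndufa8 fell at 30 min and rose at 2 h, with 530 and 430 at 30 min, 1011 at 1 h, and 1104 and 1158 at 2 h of washout, against 799 and 735 after degrader.

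Gene length ran with the change after washout. After 2 h of washout against 2 h of degrader, the median log2 change of members was 0.77 under 5 kb (23 genes), 0.45 at 5 to 10 kb (36), 0.25 at 10 to 20 kb (14), 0.06 at 20 to 50 kb (12) and -0.09 at 50 kb and over (3). For the other tested genes the medians were 0.40, 0.24, 0.06, -0.04 and -0.12 in the same classes. The share called higher was 47.8% of members under 5 kb and 47.2% at 5 to 10 kb, against 26.1% and 20.2% of other genes. It was 35.7% of members at 10 to 20 kb and 16.7% at 20 to 50 kb, against 7.63% and 2.17% of other genes. With the libraries that went against their labels left out, these 4 shares were 82.6%, 86.1%, 64.3% and 41.7% of members, against 44.8%, 43.5%, 25.4% and 11.9% of other genes. Across genes the change and length had a Spearman correlation of -0.72 over the 88 members, against -0.43 over all 12709 tested genes with a length. These values describe genes measured in the same libraries, which are not independent points. At 30 min of washout this correlation was -0.61 over the members and -0.05 over all genes. For degrader against DMSO in the time course, the correlation over the members was -0.20, -0.26, 0.33 and 0.04 from the first time to the last. Other short genes were higher after washout too, and the part of length in the members' values was not tested.

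**Figure D3:**
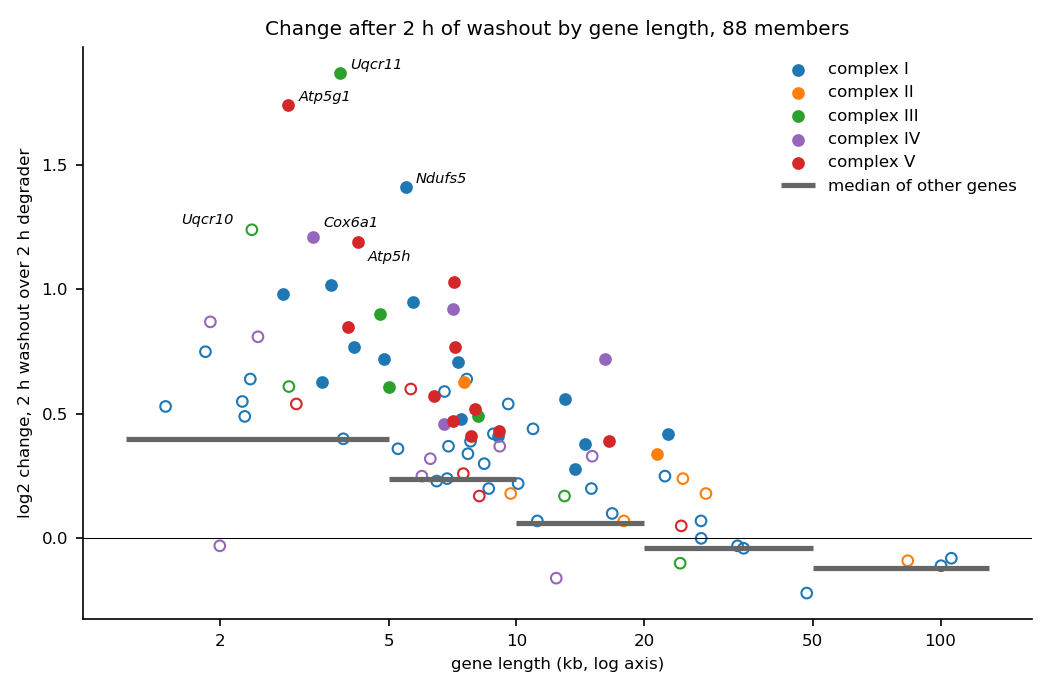
The log2 change after 2 h of washout over 2 h of degrader for each of the 88 genes against its length (log axis). Filled points were called higher, open points did not pass, and grey bars are the medians of other genes in each length class, which run from 0.40 under 5 kb to -0.12 at 50 kb and over.

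Some members share their span with another gene, whose reads may not be separable from theirs, since strand use in counting is not given in the sources used here. How reads from pseudogene copies of these genes were handled is not given either. Of the 88 genes, 13 overlapped another gene of the tables in the reference annotation, 7 of them among the 35 called higher. Atp5d overlaps Cbarp, which was at 0.03 ± 0.20 after 2 h of washout against 2 h of degrader. Atp5j overlaps Gabpa, the DNA-binding subunit of an ETS factor known to act on promoters of respiratory genes, which was at -0.07 ± 0.09. Cox7a2 overlaps Tmem30a, at 0.01 ± 0.10, Atp5md overlaps Taf5, at 0.03 ± 0.08, Ndufv2 overlaps Ankrd12, at 0.21 ± 0.10, and Atp5a1 overlaps Haus1, at 0.16 ± 0.13. None of these neighbours passed. Ndufa1 overlaps Rnf113a1, which was not tested.

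Related gene lists are given for the same comparison, 2 h of washout against 2 h of degrader. Both genes of the cytochrome c list rose, Cycs, the electron carrier itself, at 1.25 ± 0.26 and Cyc1, cytochrome c1 of complex III, at 0.71 ± 0.20. Mitochondrial ribosomal proteins (Mrpl and Mrps) had 28 of 76 higher and 0 lower (median 0.45, median length 7.81 kb). Proteasome subunits had 12 of 46 higher and 0 lower (median 0.25, median length 11.93 kb). Assembly factors outside the name rule had 13 of 42 higher and 2 lower (median 0.25, median length 10.55 kb). Cytosolic ribosomal proteins had 4 of 79 higher and 0 lower (median 0.19, median length 3.18 kb). The tricarboxylic acid cycle had 1 of 17 higher and 1 lower (median 0.05, median length 23.76 kb). Regulators of mitochondrial gene transcription had 3 of 19 higher and 0 lower (median 0.03, median length 27.20 kb). In the fit without the libraries that went against their labels, the genes called higher were 48 of 76 mitochondrial ribosomal proteins, 24 of 46 proteasome subunits, 24 of 42 assembly factors and 32 of 79 cytosolic ribosomal proteins, with 4 of 17 in the tricarboxylic acid cycle and 7 of 19 regulators. For the same washout libraries against DMSO they were, with all libraries in the fit, 47 of 76 mitochondrial ribosomal proteins, 23 of 46 proteasome subunits, 18 of 42 assembly factors and 44 of 79 cytosolic ribosomal proteins, and without those libraries 57 of 76, 34 of 46, 31 of 42 and 63 of 79. The cytosolic ribosomal proteins had a median of 0.44 against DMSO. Nrf1, whose motif is counted above, was at 0.03 ± 0.09, Yy1 at -0.04 ± 0.12 and Tfam, the mitochondrial DNA packaging factor, at 0.18 ± 0.08, and none of them passed.

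A485 moved members both ways from the first time measured. Against DMSO, 24 were higher and 9 lower at 15 min, 19 and 11 at 30 min, and 20 and 13 at 1 h. The background was large: 25.8% of all genes were higher and 29.3% lower at 15 min, 27.1% and 31% at 30 min, and 29.4% and 33.2% at 1 h. The share of members called lower was 10.2%, 12.5% and 14.8% at these times, and the share called higher 27.3%, 21.6% and 22.7%. Between 15 min and 1 h, 14 members were higher at both times, 7 lower at both, and 0 changed direction. These comparisons share their DMSO libraries. The A485 libraries of 30 min and 1 h carry other replicate numbers than those of DMSO and of 15 min. Recovered reads, summed over transcripts as above, were 7453718 to 14686743 per library after 1 h of A485 and 21400590 to 27309451 in DMSO. Whether this bears on the calls was not tested.

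Ndufb1, an accessory subunit of complex I, fell furthest. It had 313, 339 and 320 after 1 h of A485, against 690, 647 and 662 in DMSO, with no overlap (log2 change -1.04 ± 0.07, limma adjusted p = 2.60e-14). At 15 min it was already at 375, 393 and 373 (-0.81 ± 0.07), and at 30 min at 338 and 403 (-0.85 ± 0.08). Ndufa6 had 307, 351 and 367 after 1 h of A485, against 539, 563 and 558 in DMSO (-0.70 ± 0.09), the opposite direction to its change at 15 min of degrader. Sdhd averaged 367 ± 13.5 after 1 h of A485 and 494 ± 16.5 in DMSO (SD, n = 3 each), with a log2 change of -0.43 ± 0.08. Also lower at 1 h were Ndufa2 (-0.86 ± 0.26), Ndufa1 (-0.79 ± 0.26), Atp5g3 (-0.65 ± 0.13), Cox5a (-0.39 ± 0.07), Uqcr11 (-0.36 ± 0.14), Ndufa4 (-0.35 ± 0.12) and Cox6c (-0.25 ± 0.08). By complex, the falls at 1 h were 6 of 45 members of complex I, 3 of 12 of complex IV, 2 of 16 of complex V, 1 of 7 of complex II and 1 of 8 of complex III.

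The rises under A485 were mostly in complex I, the largest group. At 15 min 19 of its 45 members were higher and 3 lower, among them 6 of 8 assembly factors. Ndufv3 had 431, 388 and 418 after 1 h of A485 against 242, 291 and 280 in DMSO (0.61 ± 0.09, limma adjusted p = 5.95e-07). Ndufb2 averaged 331 ± 42.6 after 1 h of A485 and 218 ± 7.34 in DMSO (0.59 ± 0.10; SD, n = 3 each). Ndufa12 averaged 934 ± 36.3 after 1 h of A485 and 700 ± 19.5 in DMSO (0.42 ± 0.05). Of the core subunits, Ndufs3 (0.30 ± 0.08), Uqcrc1 (0.22 ± 0.06), Uqcrc2 (0.21 ± 0.05) and Sdha (0.19 ± 0.06) rose at 1 h. Atp5a1 (-0.02), Atp5b (-0.04), Cox4i1 (-0.08) and Ndufs1 (-0.06) did not pass at 1 h. Under 5 kb, 1 of 23 members was higher and 5 lower at 1 h, and of the 3 members of 50 kb and over 3 were higher (Ndufaf2, Ndufs4 and Sdhaf3). Among other genes 11.9% were higher and 33.8% lower under 5 kb at 1 h, and 31.7% and 38.6% at 50 kb and over. Of the 3 long members 2 were higher at 15 min and 0 at 30 min. Mitochondrial ribosomal proteins had 34 of 75 higher and 9 lower (median log2 change 0.17) at 1 h, and cytosolic ribosomal proteins 7 of 78 higher and 33 lower (median log2 change -0.16).

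Adding the degrader to A485 changed few members. Against A485 alone, limma called 0 at 15 min, where 0.857% of all genes were higher and 0.0238% lower, and 0 at 30 min, where 1.31% were higher and 0.5% lower. The members with an unadjusted p under 0.05 numbered 1 and 13. At 1 h 1 was higher and 1 lower, against 4.56% and 2.34%. Ndufa6 had 432, 503 and 458 with both agents against 307, 351 and 367 with A485 alone (0.44 ± 0.09, limma adjusted p = 0.00166), with no overlap. Uqcrc2, a core protein of complex III, had 1380, 1394 and 1450 with both agents against 1553, 1585 and 1668 with A485 alone (-0.19 ± 0.05, limma adjusted p = 0.015), also with no overlap. Whether A485 altered the response to 1 h of degrader was tested as an interaction. It passed for 1 member above 0, Ndufb1 (0.43 ± 0.10), and 1 below, Uqcrc2 (-0.25 ± 0.07), where 4.99% of all genes passed above 0 and 6.54% below.

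**Figure D4:**
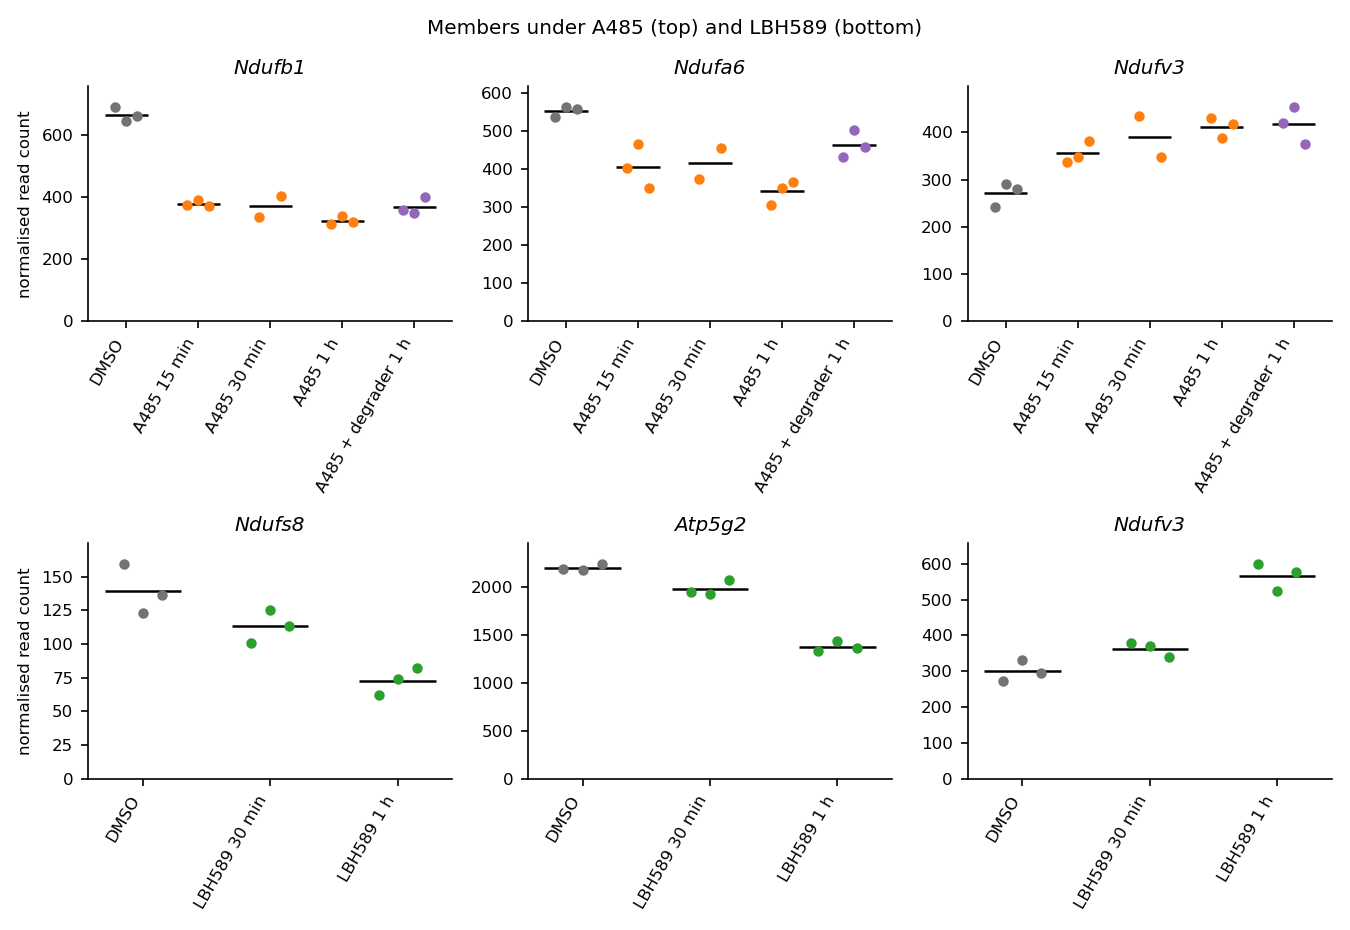
Normalised read counts in each library (points) and group means (bars) for genes in the A485 series and in the LBH589 series. Ndufb1 lies at 313 to 403 in all A485 libraries against 647 to 690 in DMSO, and Ndufv3 is higher than in DMSO after 1 h of either inhibitor.

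LBH589 was followed by more falls than rises. At 1 h 9 members were higher, 36 lower and 43 did not pass, where 32.4% of all genes were higher and 34.6% lower. The median log2 change was -0.10, against -0.00 over all genes. At 30 min 7 were higher and 14 lower, against 17.8% and 21.9%. The share of members called lower at 1 h, 40.9%, was near the background, and the share called higher, 10.2%, was below it.

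The falls at 1 h were led by Ndufaf8 (-0.95 ± 0.27) and Ndufs8, an iron-sulfur core subunit of complex I. Ndufs8 had 62.1, 74.2 and 82.2 after 1 h of LBH589, against 159, 123 and 136 in DMSO, with no overlap (-0.93 ± 0.13, limma adjusted p = 5.57e-07). Atp5g2, the member with the highest count per kb in the A485 series, had 1950, 1924 and 2077 after 30 min and 1333, 1436 and 1359 after 1 h of LBH589, against 2185, 2174 and 2237 in DMSO. Its log2 change was -0.15 ± 0.04 at 30 min and -0.68 ± 0.04 at 1 h (limma adjusted p at 1 h = 1.52e-14). Atp5e, a small F1 subunit (-0.58 ± 0.08), Ndufb2 (-0.43 ± 0.07), Ndufb7 (-0.43 ± 0.11) and Ndufa7 (-0.41 ± 0.04) followed. Of the 7 complex I core subunits 6 fell, and Ndufv1 was at -0.09 ± 0.06. In complex II, Sdhc fell (-0.15 ± 0.05), and Sdha (-0.08), Sdhb (0.00) and Sdhd (0.08) did not pass. Uqcrc1 (-0.23), Cox4i1 (-0.16), Cox6c (-0.26) and Atp5a1 (-0.17) fell by small amounts.

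Ndufv3 went the other way. It had 378, 369 and 339 after 30 min and 598, 525 and 576 after 1 h of LBH589, against 273, 332 and 295 in DMSO (0.92 ± 0.08 at 1 h, limma adjusted p = 1.56e-11). Cox6a1 (0.51 ± 0.11), Ndufb6 (0.37 ± 0.07), Uqcrh, the hinge protein of complex III (0.35 ± 0.06), and Ndufa8 (0.31 ± 0.05) also rose at 1 h. Of the lists, cytosolic ribosomal proteins had 1 of 78 higher and 75 lower (median log2 change -0.58) at 1 h, and mitochondrial ribosomal proteins 11 of 76 higher and 41 lower (median log2 change -0.23). Regulators of mitochondrial gene transcription had 1 of 19 higher and 17 lower (median log2 change -0.31), with Nrf1 at -0.28 ± 0.03 and Gabpa at -0.30 ± 0.04.

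In the LBH589 washout series, 29 members were higher after 1 h than after 30 min of washout and 0 lower, where 13.2% of all genes were higher and 10.1% lower. The median log2 change was 0.18, against -0.00 over all genes. Ndufa8 had 346, 318 and 468 after 1 h of washout, against 121, 130 and 176 after 30 min (1.40 ± 0.19, limma adjusted p = 0.00212). Atp5h had 229, 210 and 211 after 1 h against 135, 110 and 73.8 after 30 min (1.06 ± 0.21). Uqcr11 had 250, 272 and 584 after 1 h against 153, 127 and 93.0 after 30 min (1.48 ± 0.30, limma adjusted p = 0.00901), and replicate 3 at 1 h held by far the highest value. Leaving out replicate 3 at 1 h gave 39 calls, replicate 1 at 1 h 15, and replicate 2 or 3 at 30 min 8 or 9.

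Ndufa3 (1.42 ± 0.34), Atp5o (1.11 ± 0.17), Ndufv3 (1.07 ± 0.33), Ndufv1 (0.87 ± 0.17), Sdhd (0.66 ± 0.13), Cox4i1 (0.54 ± 0.11), Sdhb (0.51 ± 0.11) and Atp5c1 (0.30 ± 0.07) also rose, whereas Sdha (-0.04), Uqcrc2 (0.01) and Atp5b (0.03) did not pass. Of the 29 genes, 15 were also among the 35 higher after 2 h of washout against degrader in the time course, 51.7% of the 29 and 42.9% of the 35. Of the other 59 members 20 (33.9%) were higher there, and over all members 39.8%. Among genes that are no members, 22% of those called higher in the LBH589 washout series and 7.05% of the rest were higher in the time course. Whether the members' overlap exceeds what these shares give was not tested. Uqcr11, Atp5h, Atp5d, Ndufa3, Ndufa8 and Sdhd were among these 15. The Spearman correlation between the change and length was -0.05 over the members and -0.24 over all 12332 genes with a length. The share called higher was 21.7% of members under 5 kb, 41.7% at 5 to 10 kb, 50% at 10 to 20 kb and 16.7% at 20 to 50 kb, against 12%, 23.2%, 21.3% and 10% of other genes. Atp5g1 had 120, 126 and 90.5 after 1 h of washout and 113, 96.6 and 83.9 after 30 min, at a log2 change of 0.19 ± 0.20 that did not pass. Ndufs5 was at 0.43 ± 0.24 and did not pass. The washout of the time course was set against degrader and the one with LBH589 against an earlier washout time, so their sizes were not compared.

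**Figure D5:**
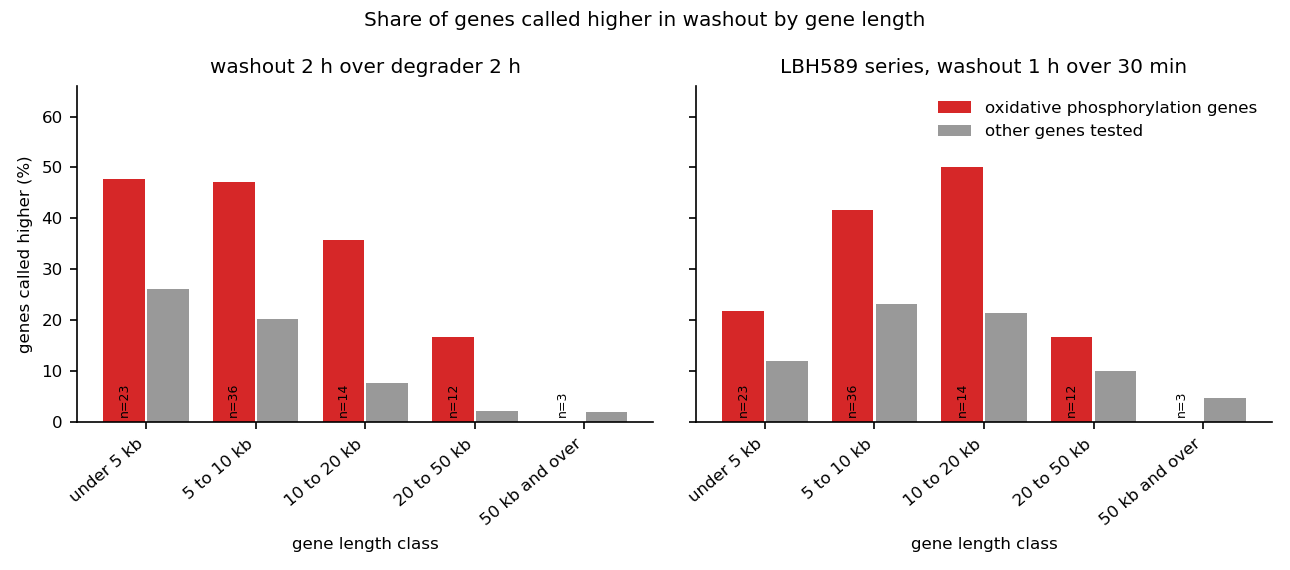
The percentage of genes called higher by gene length class, for the 88 members and all other tested genes, in 2 washout comparisons. In the time course the members' share is 47.8% under 5 kb, 35.7% at 10 to 20 kb and 16.7% at 20 to 50 kb. In the LBH589 washout series it is 21.7%, 50% and 16.7% in these classes. Of the 3 members of 50 kb and over, 0 were higher in either.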

How the data were processed

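The authors deposited gene tables whose values, per the labels, are counts normalised by DESeq2 (unit: signal, here called normalised read counts). Tools listed by the submitters' processing notes were DESeq2 1.46.0, featureCounts 2.0.1, HOMER, Bowtie2 2.2.2, bedtools and SAMtools 1.16.1, with mm39 and dm3 as builds. For strand use and filters, the sources used here give nothing. Whole reads could be recovered from 100% of the deposited signal values, within a tolerance of 0.1 read.

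Samples were grouped by library name, and the members and gene lists were chosen with earlier results of these data known. Of the 25857 transcripts, the one with the highest mean stood for each symbol. In each of the 4 tables, genes whose mean reached 10 entered limma 3.58.1 (R 4.3.3; lmFit and eBayes with a trend) as log2(value + 1), with all groups of a table in a shared fit, Benjamini-Hochberg adjustment over all tested genes and a threshold of 0.05. Log2 changes are on that scale, which understates changes of low genes. The time-course table names 22 libraries and fills 21 columns: 1 empty per-sample column was not used, 2 columns whose sample is not settled were used only to check column order, and 19 entered the fit. The median ratio between libraries was 0.999 to 1.012 after the authors' normalisation, so a change shared by most genes cannot be seen.

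Named genes were up to 10 members with the largest change in each direction among those called, fixed core and catalytic subunits (1 of which is not reported here), and the shortest and longest members. Overlap counts, neighbours and the genes shown by library were chosen after their values were seen. Alternatives were a pseudocount of 5, a mean of at least 50, no filter, TMM scaling, edgeR 4.0.16 and DESeq2 1.42.0 on recovered reads, a replicate block, the 2 groups alone, each library left out in turn, and, chosen after seeing the data, the lowest-mean transcript of each symbol. The ribosomal and proteasome lists leave out Rps6k kinases and binding proteins that share the prefix. In tests on simulated data, 32% of genes changed by 0.5 and 95% of those changed by 1 on the log2 scale were recovered in the 2 h washout comparison (12694 genes). The rates were 57.6% and 89% for 1 h of A485 (12571 genes), and 64% and 99% for 1 h of LBH589 (12522 genes). False calls numbered 2, 26 and 16. The simulation set the same relative spread for every gene and held no library that went against its label, so these rates may not hold for the real libraries. Tables of dREG sites (transcribed regulatory elements) were used only to check column order and not placed at gene starts, since their build is mm39 and the gene table and promoters at hand are of GRCm38.p6.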

Additional observations from a re-analysis of the deposited data

Results flagged for a closer look

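The response to 1 h of degrader differed with and without A485 for 2 of the 88 members, by the interaction term of the limma fit. Of all genes 4.99% passed above 0 and 6.54% below. Ndufb1 had 358, 351 and 401 with both agents and 313, 339 and 320 with A485 alone, against 578, 512 and 609 with degrader alone and 690, 647 and 662 in DMSO. The degrader response with A485 minus that without was 0.43 ± 0.10 on the log2 scale (limma adjusted p = 0.00572), made of 0.19 ± 0.07 with A485, which did not pass, and -0.24 ± 0.07 without it. Leaving out each library in turn gave 0.36 to 0.48.

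Uqcrc2 had 1380, 1394 and 1450 with both agents and 1553, 1585 and 1668 with A485 alone, against 1418, 1424 and 1494 with degrader alone and 1363, 1382 and 1395 in DMSO. Its difference was -0.25 ± 0.07 (limma adjusted p = 0.0139), made of -0.19 ± 0.05 with A485 and 0.07 ± 0.05 without it, which did not pass. Leaving out each library in turn gave -0.27 to -0.22.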

How the results depend on the processing

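No called value of a named gene changed direction under any alternative run. Of 287 medians over the members under alternatives, 10 had the opposite sign, in 4 comparisons whose own medians were no larger than 0.02 in size, and the furthest was -0.06 at 30 min of degrader without the library labelled replicate 3. Among values of named genes under alternatives, 6030 kept their side of the threshold, 353 fell below it and 89 passed it. Of the 6030, 464 came from the lowest-mean transcript of each symbol. For tested members its mean was 0.935 to 1 of the highest, so that run nearly repeats the main fit. Counts of members called moved by more than 1.5 times as follows. The libraries that went against their labels enter only the 15 min and 30 min degrader comparisons. In the others, leaving them out kept the compared libraries as they were and changed the spread estimated by the fit. For the remaining counts the cause was not tested. Without the 2 time-course libraries that went against their labels there were 11 calls at 15 min of degrader (1 with them), 1 at 30 min (0), 4 at 1 h (0) and 9 at 2 h (0), 53 at 30 min of washout (20) and 65 at 2 h of washout against degrader (35). Fitting the 2 groups alone gave 0, 3 and 5 at 15 min, 1 h and 2 h of degrader, 46 at 30 min and 72 at 2 h of washout. Over all genes that fit called 2941 higher and 2996 lower of 12671 at 30 min of washout. At 2 h of washout it called 3304 and 2981 of 12575. For degrader it called 528 and 71 of 12740 at 15 min and 1749 and 1690 of 12715 at 1 h. At 2 h of degrader these were 1783 and 1435 of 12666. Without the libraries with conflicting labels there were 0 at 15 min of degrader, where 560 of 12731 genes were higher and 46 lower. This left no time-course library of 1 h or 2 h of degrader, so the washout comparisons against degrader could not be run. DESeq2 gave 31 at 30 min of washout, and edgeR gave 6 for 15 min of degrader in the A485 series (3). In these comparisons DESeq2 called 1833 higher and 2126 lower of all 12720 genes, and edgeR 1464 and 1017 of 12597.

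Replicate numbers did not pair the samples: of 36 same-numbered pairs in the time course 10 had a correlation of deviations over 0.1, against 4 of 58 in the A485 series, 1 of 3 in the LBH589 series and 0 of 3 in the LBH589 washout series. Fits with a replicate block held only groups with the replicate numbers compared, so they differ from the main fit in more than the block. At 30 min of washout this left the 2 groups alone, with 52 calls. Of all 12671 genes 3203 were higher and 3239 lower in that fit. In the A485 series the block fit gave 6 calls at 15 min (3) and 14 at 1 h (9) of degrader. Of all 12580 genes it called 1566 higher and 828 lower at 15 min, and 2054 and 1519 at 1 h.

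With each library left out in turn, and the full count in parentheses, calls numbered 0 to 3 (1) at 15 min of degrader, 0 to 2 (0) at 30 min, 0 to 0 (0) at 1 h, 0 to 0 (0) at 2 h, 0 to 0 (20) at 30 min of washout, 9 to 14 (35) at 2 h of washout against degrader and 28 to 56 (61) against DMSO. In the A485 series they were 0 to 2 (3), 1 to 5 (3) and 5 to 11 (9) for degrader at 15 min, 30 min and 1 h, 24 to 31 (33), 17 to 28 (30) and 29 to 35 (33) for A485, 0 to 0 (0), 0 to 2 (0) and 1 to 3 (2) for both agents against A485, and 2 to 6 (2) for the interaction. They were 15 to 23 (21) and 37 to 46 (45) for 30 min and 1 h of LBH589 and 8 to 39 (29) in the LBH589 washout series. In the washout groups of 2 this leaves 1 library, assumed to vary like the other groups. The longest and shortest transcripts were not run, since the files give no transcript lengths.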

Other observations

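The ratio of reads in the gene table, summed over transcripts, to those in the dREG table was 7.8 to 9.6 over the first 16 time-course columns. Over the last 5 it was 8.04 to 13.74 as the columns are named, and 8.92 to 10.08 when the names are moved by 1 place.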
